A study of Mus musculus with 6 samples.

Results

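The Hox cluster genes were taken as every gene whose mouse symbol is Hox followed by a cluster letter (a, b, c or d) and a number, once the NCBI gene numbers of the deposited counts had been matched to symbols. This gave 37 of the 18305 genes counted, of the 39 such genes that the RefSeq gene table lists; Hoxc12 and Hoxd12 were not analysed here. The 37 members were 11 Hoxa genes on chromosome 6, 10 Hoxb genes on chromosome 11, 8 Hoxc genes on chromosome 15 and 8 Hoxd genes on chromosome 2. RNA sequencing had been done on 3 kinds of cultured cells of KM mice, with 2 libraries each. CiLC were embryonic fibroblasts of passages 3 to 5, prepared 12.5 or 13.5 days after conception. Small molecules, not named in the sources used here, were added to them 24 h after seeding. LC were Leydig cells, the androgen-producing cells that lie between the seminiferous tubules, prepared from testis and kept for 0 to 1 passages. MEF were untreated embryonic fibroblasts of passages 3 to 5, prepared 12.5 or 13.5 days after conception. The series set the groups side by side to ask how far CiLC are like LC in their expression of all genes. Tissue of origin, stage and passage number differ together between LC and the fibroblast cultures and cannot be told apart.

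Hox genes encode homeodomain transcription factors that give cells their position along the main body axis and along the limbs. They lie in 4 clusters, and genes with the same number in different clusters, called paralogues, descend from a common ancestral gene. Within a cluster, genes with low numbers are used first and furthest towards the head, and genes with high numbers later and nearer to the tail or the tip of a limb. Fibroblasts and other mesenchymal cells of adult organs are known to keep a Hox pattern that reflects where in the body they arose.

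The stretches just before the transcription start of 5 members are shown first: the 3 Hoxd members with the largest increases in the Leydig cultures, and Hoxa9 and Hoxb8 as examples of members with large decreases there, chosen after their values were seen. They come from RefSeq promoters of the build GRCm38.p6 (the counts were made on mm9), and each holds 250 bases ending at the base before the start. Hoxd9 (chr2:74697513-74697762, plus strand), Hoxd10 (chr2:74691641-74691890, plus strand) and Hoxd11 (chr2:74682073-74682322, plus strand, the more downstream of 2 listed starts) were higher in LC than in MEF. Hoxa9 (chr6:52227371-52227620, minus strand) and Hoxb8 (chr11:96281655-96281904, plus strand) were lower in LC than in MEF. Capitals mark matches on either strand to TGATNNAT (a joint site of PBX and HOX proteins), TAATTA (a core of homeodomain sites) or TTTATG (a core of posterior HOX and CDX sites).
Hoxd9: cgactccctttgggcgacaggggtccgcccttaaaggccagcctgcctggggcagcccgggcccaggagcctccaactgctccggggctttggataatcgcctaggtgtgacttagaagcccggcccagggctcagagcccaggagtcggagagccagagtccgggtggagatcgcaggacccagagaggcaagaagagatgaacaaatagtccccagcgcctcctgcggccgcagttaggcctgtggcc
Hoxd10: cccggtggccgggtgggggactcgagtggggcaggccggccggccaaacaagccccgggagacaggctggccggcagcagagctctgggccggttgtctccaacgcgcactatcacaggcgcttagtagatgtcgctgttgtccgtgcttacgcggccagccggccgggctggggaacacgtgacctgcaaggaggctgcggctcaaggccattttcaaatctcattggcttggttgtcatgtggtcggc
Hoxd11: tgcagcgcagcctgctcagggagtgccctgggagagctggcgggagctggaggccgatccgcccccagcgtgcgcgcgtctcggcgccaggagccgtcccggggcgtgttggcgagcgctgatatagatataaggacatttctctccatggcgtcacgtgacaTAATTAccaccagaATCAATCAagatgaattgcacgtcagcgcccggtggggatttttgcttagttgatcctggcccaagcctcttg
Hoxa9: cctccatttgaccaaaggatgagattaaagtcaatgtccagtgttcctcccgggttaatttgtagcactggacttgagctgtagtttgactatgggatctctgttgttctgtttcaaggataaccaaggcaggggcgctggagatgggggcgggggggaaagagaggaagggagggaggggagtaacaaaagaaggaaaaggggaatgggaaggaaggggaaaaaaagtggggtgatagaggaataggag
Hoxb8: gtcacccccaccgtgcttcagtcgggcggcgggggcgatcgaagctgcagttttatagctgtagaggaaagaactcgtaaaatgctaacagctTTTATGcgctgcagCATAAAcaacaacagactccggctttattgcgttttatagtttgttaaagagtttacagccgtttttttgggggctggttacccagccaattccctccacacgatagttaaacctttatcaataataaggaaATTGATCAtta

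Of these, the Hoxd11 and Hoxb8 stretches held marked matches, and those of Hoxd9, Hoxd10 and Hoxa9 held none. The RefSeq table had 23 promoters for 21 members, and 16 members had no entry. TGATNNAT stood in 4 of the 23 (Hoxa2, Hoxb1, Hoxb8 and Hoxd11), against 7.68% of all 32851 mouse promoters of that length. TAATTA stood in 2 of the 23, both of Hoxd11, against 4.84% of all promoters. TTTATG stood in 5 of the 23 (Hoxa7, Hoxb8, Hoxd3, Hoxd4 and Hoxd11), against 10.8% of all promoters. No match overlapped another. Direct repeats of the retinoic acid response half-site AGGTCA spaced by 5 bases stood in 0 of the 23, against 0.00913% of all promoters. Such matches describe the letters only. The Hox stretches had a median of 13 CpG dinucleotides (range 2 to 35), against a median of 6 over all promoters.

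Libraries held 18.4 to 18.9 M estimated reads, of which Hox genes took 0.0552% and 0.0557% in CiLC, 0.0335% and 0.0336% in LC, and 0.0647% and 0.0637% in MEF. Markers were read as sums of CPM, read counts scaled to a common library size. The 7 Leydig markers summed to 144 to 148 CPM in CiLC, 1081 to 1109 CPM in LC and 7.55 to 9.40 CPM in MEF; Cyp17a1, an enzyme of androgen synthesis, was at or near 0 in every library, and Lhcgr, the luteinizing hormone receptor, averaged 0.146 CPM in LC and was at 0 in CiLC. The 7 fibroblast markers summed to 30995 to 31274 CPM in CiLC, 28208 to 28884 CPM in LC and 28852 to 29732 CPM in MEF, sums made mostly of 3 collagens. Other fibroblast markers went both ways: Thy1 averaged 817 CPM in CiLC, 5.73 CPM in LC and 395 CPM in MEF, and Pdgfra 943 CPM in CiLC, 1787 CPM in LC and 303 CPM in MEF. The 8 macrophage markers summed to 2579 to 2610 CPM in CiLC, 1059 to 1082 CPM in LC and 3960 to 4011 CPM in MEF, and none was at 0 in any group. The 6 Sertoli markers summed to 107 to 110 CPM in CiLC, 2109 to 2118 CPM in LC and 30.5 to 32.5 CPM in MEF, with Fshr at 0 in CiLC and MEF and Rhox5 at 0 in MEF. The 4 peritubular and smooth muscle markers summed to 134 to 138 CPM in CiLC, 921 to 935 CPM in LC and 1530 to 1608 CPM in MEF. Endothelial markers summed to 9.63 to 9.67 CPM in CiLC, 69.2 to 77.5 CPM in LC and 24.2 to 24.8 CPM in MEF (Tie1 at 0 in MEF), and germ cell markers summed to at most 4.17 CPM in any library. The part of these cell types in the Hox differences below was not tested, and in such bulk samples fewer cells of a type and less RNA per cell cannot be told apart.

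**Figure D1:**
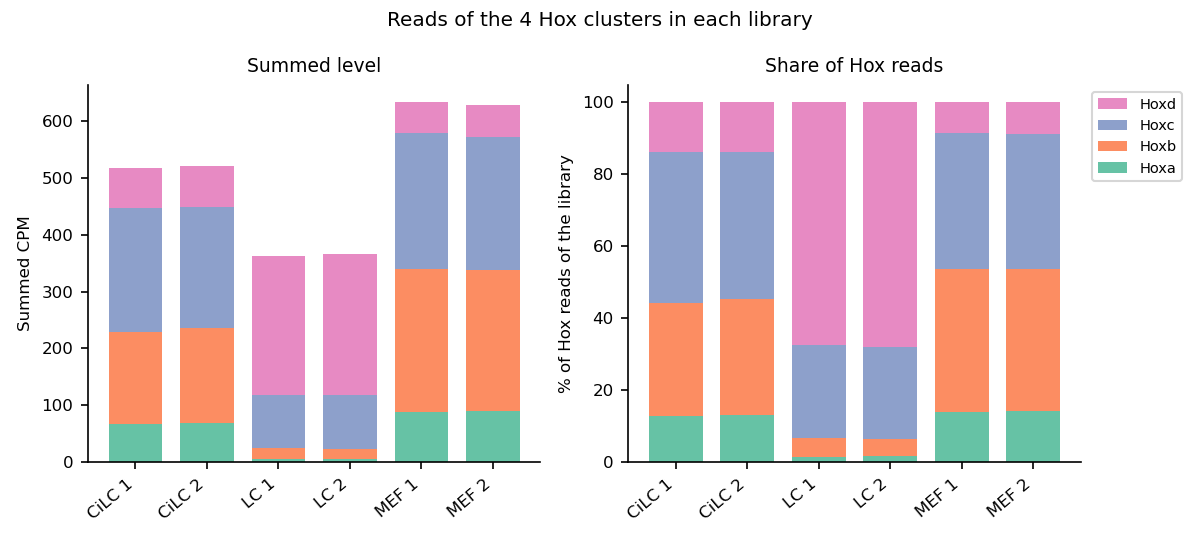
Summed CPM of the Hoxa, Hoxb, Hoxc and Hoxd genes (left) and the share of each cluster in a library's Hox reads in percent (right), for the 2 libraries each of CiLC, LC and MEF. Hoxd genes held 67.8% of Hox reads in LC, against 8.68% in MEF, and the CiLC bars stand close to the MEF bars.

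Which cluster the Hox reads came from differed most in LC. The Hoxd genes summed to 71.5 ± 0.00717 CPM in CiLC, 248 ± 3.49 CPM in LC and 54.7 ± 0.875 CPM in MEF (means ± SD of 2 libraries, as for all values with an SD below). The Hoxa genes summed to 67.2 ± 1.39 CPM in CiLC, 5.29 ± 0.352 CPM in LC and 88.2 ± 0.611 CPM in MEF. The Hoxb genes summed to 166 ± 3.48 CPM in CiLC, 18.4 ± 1.27 CPM in LC and 250 ± 1.36 CPM in MEF. Hoxa and Hoxb were thus the clusters with the lowest sums in LC, whereas in MEF the Hoxd sum was the lowest. The Hoxc genes summed to 215 ± 2.47 CPM in CiLC, 93.9 ± 0.116 CPM in LC and 237 ± 3.54 CPM in MEF. As shares of a library's Hox reads, the Hoxd genes took 13.8% in CiLC, 67.8% in LC and 8.68% in MEF, the Hoxa genes 12.9% in CiLC, 1.45% in LC and 14.0% in MEF, and the Hoxb genes 31.9% in CiLC, 5.04% in LC and 39.7% in MEF. The groups did not overlap for any of the 4 sums, but with 2 libraries against 2 an exact permutation test cannot go below p = 0.333, and the sums were not tested. The plot of cluster sums by library shows the composition.

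Of the 37 members, 31 passed the filter on low counts and were tested. The other 6, Hoxa13, Hoxb1, Hoxb13, Hoxc11, Hoxd1 and Hoxd13, had at most 6 estimated reads in any library. Hoxd1, the most anterior Hoxd gene, had 1 and 2 reads in CiLC, 0 and 0 reads in LC, and 6 and 5 reads in MEF. It had the most reads of the untested members. Against a floor of 3 reads over the LC group Hoxd1 was at least 3.28-fold lower in LC than in MEF, and the MEF to CiLC ratio was 3.77 (exact 95% binomial interval 0.996 to 21.0, counting error only). Hoxc11 had 3 and 2 reads in CiLC, 1 and 0 reads in LC, and 2 and 3 reads in MEF, a MEF to LC ratio of 4.47 (0.500 to 211). Both intervals include a ratio of 1.

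**Figure D2:**
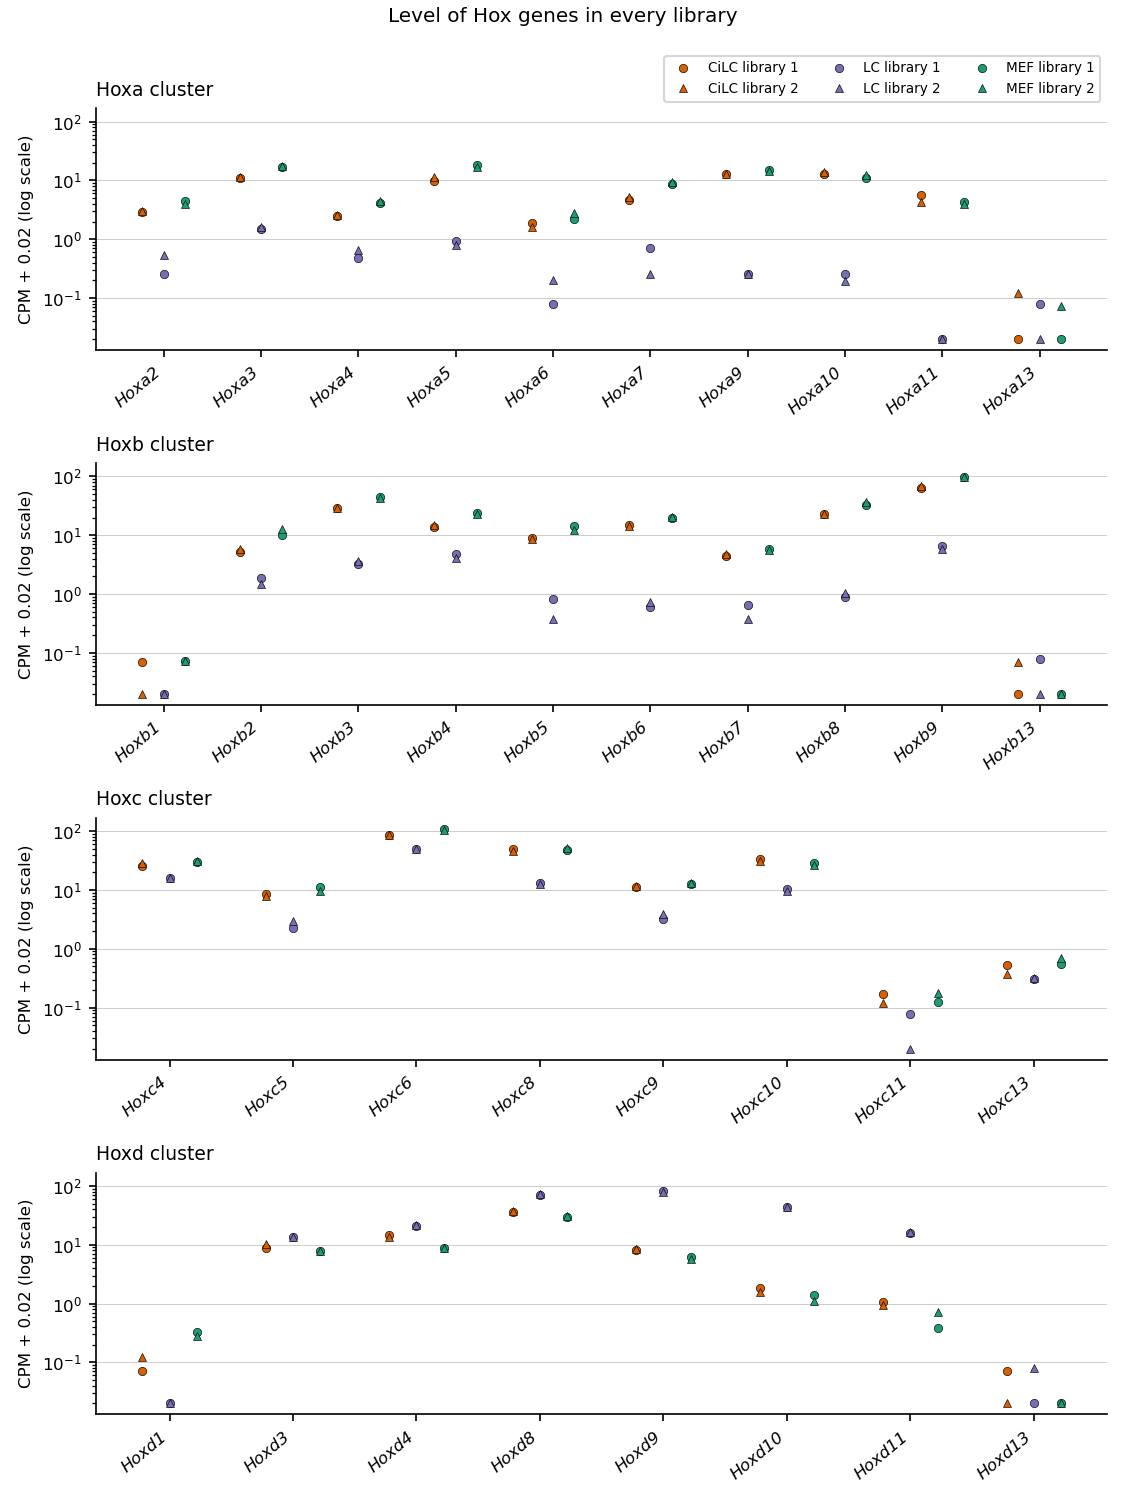
Level of 36 Hox genes in every library, as CPM + 0.02 on a log scale, with a panel per cluster and genes in order of paralogue number. In the Hoxa and Hoxb panels the LC points lie below those of CiLC and MEF for every tested gene shown, and in the Hoxd panel the LC points lie above them from Hoxd3 to Hoxd11.

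The comparison of CiLC with MEF asks how the Hox pattern of the treated cultures differed from that of the untreated fibroblast cultures. Most tested Hoxa and Hoxb genes of low and middle number were lower in CiLC, 5 of the 6 tested Hoxd genes were higher, and the Hoxc genes differed little. Changes were small: Hoxb2 was the only called member that differed by at least 2-fold. Of the 31 tested members, 6 were higher, 14 were lower and 11 were not called at an adjusted p of 0.05, a share of called members to be read against 51.6% of all 14581 genes tested (26.1% higher, 25.5% lower, and 12.2% called with at least 2-fold). The median log2 fold change was -0.32 over the 31 members and 0.01 over all genes tested. By cluster, the median was -0.51 for Hoxa (0 higher, 5 lower, 5 not called), -0.59 for Hoxb (0 higher, 7 lower, 1 not called), -0.18 for Hoxc (1 higher, 2 lower, 4 not called) and 0.48 for Hoxd (5 higher, 0 lower, 1 not called).

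Hoxb2 (NCBI gene 103889), which patterns hindbrain segments and the facial nerve, had 5.14 and 5.73 CPM in CiLC, 1.86 and 1.47 CPM in LC, and 10.1 and 12.6 CPM in MEF. CiLC lay between the other groups and overlapped neither. It was 2.09-fold lower in CiLC than in MEF (log2 -1.06, SE 0.141, edgeR adjusted p = 7.82e-07). Hoxb4 (NCBI gene 15412), which promotes growth of blood stem cells, had 13.5 and 14.7 CPM in CiLC, against 23.5 and 22.6 CPM in MEF. Its log2 fold change was -0.71 (SE 0.0901, edgeR adjusted p = 5.33e-07). Both CiLC libraries were below both MEF libraries. Hoxb9 (NCBI gene 15417), a gene of the rib-bearing trunk, had the smallest p of the cluster, with 64.2 and 67.6 CPM in CiLC, 6.58 and 5.76 CPM in LC, and 99.5 and 97.0 CPM in MEF. It was 1.49-fold lower in CiLC than in MEF (log2 -0.58, SE 0.0523, edgeR adjusted p = 2.36e-09). The 8 tested Hoxb genes lay within a narrow band, from log2 -1.06 (Hoxb2) to -0.32 (Hoxb7, not called, edgeR adjusted p = 0.114). Values of Hoxb3, Hoxb4 and Hoxb9 were not whole in any library and the spans of Hoxb3 and Hoxb4 overlap, so their reads may be shared with other genes.

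In the Hoxa cluster the members from Hoxa2 to Hoxa5 and Hoxa7 were lower in CiLC, and the posterior members were not called. Hoxa5 (NCBI gene 15402), needed for the lung, the trachea and the neck vertebrae, had 9.77 and 11.5 CPM in CiLC, 0.928 and 0.765 CPM in LC, and 18.6 and 17.1 CPM in MEF. CiLC and MEF did not overlap (log2 -0.74, SE 0.105, edgeR adjusted p = 2.38e-06). Hoxa7, a thoracic patterning gene, had 4.68 and 5.22 CPM in CiLC, 0.696 and 0.235 CPM in LC, and 8.54 and 9.21 CPM in MEF. It was 1.79-fold lower in CiLC than in MEF (log2 -0.84, SE 0.154, edgeR adjusted p = 6.47e-05). Hoxa4, a neck vertebra gene, had 2.49 and 2.59 CPM in CiLC, 0.464 and 0.648 CPM in LC, and 4.14 and 4.37 CPM in MEF (log2 -0.74, SE 0.205, edgeR adjusted p = 0.00372). In each of the 3 genes CiLC stood below MEF and far above LC. The posterior members Hoxa9, Hoxa10 and Hoxa11, which pattern the limb and the reproductive tract, had log2 fold changes of -0.23, 0.18 and 0.24 with edgeR adjusted p of 0.0547, 0.160 and 0.301. Hoxa6 was not called either (log2 -0.50).

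In the Hoxd cluster every tested member had a positive log2 fold change in CiLC against MEF, from 0.29 (Hoxd8) to 0.91 (Hoxd11). Hoxd4 (NCBI gene 15436), a gene of the neck region, had 14.7 and 13.3 CPM in CiLC, 21.0 and 21.4 CPM in LC, and 8.70 and 8.95 CPM in MEF. It was 1.58-fold higher in CiLC than in MEF (log2 0.66, SE 0.105, edgeR adjusted p = 1.11e-05), and CiLC lay between the other groups. Hoxd8 and Hoxd9 were 1.22-fold and 1.40-fold higher in CiLC than in MEF (edgeR adjusted p = 0.000669 and 0.00118), and Hoxd3 was 1.24-fold higher (edgeR adjusted p = 0.0319). Hoxd11 (NCBI gene 15431), which shapes the forearm, the wrist and the kidney, had 1.06 and 0.938 CPM in CiLC, 15.7 and 16.2 CPM in LC, and 0.370 and 0.686 CPM in MEF. Its MEF values rest on 7.05 and 13.2 estimated reads that were not whole, and its span overlaps that of Hoxd10. The log2 fold change of Hoxd11 in CiLC against MEF was 0.91 (SE 0.397, edgeR adjusted p = 0.0406), and it was 0.54 without MEF library 1 (edgeR adjusted p = 0.326) and 1.42 without MEF library 2 (edgeR adjusted p = 0.0223). The call of Hoxd11 was also lost without either CiLC library (0.79 and 1.02, edgeR adjusted p = 0.176 and 0.0668) or either LC library (0.91 and 0.92, edgeR adjusted p = 0.0570 and 0.0567). Hoxd10 was not called (log2 0.47, edgeR adjusted p = 0.137).

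In the Hoxc cluster Hoxc6 (NCBI gene 15425), a thoracic patterning gene, had the smallest p, with 87.0 and 87.0 CPM in CiLC, 48.9 and 48.9 CPM in LC, and 109 and 103 CPM in MEF. It was 1.22-fold lower in CiLC than in MEF (log2 -0.29, SE 0.0499, edgeR adjusted p = 4.22e-05). Hoxc5 was also lower (log2 -0.35, edgeR adjusted p = 0.0218), and Hoxc10, known for its part in hindlimb motor neurons, was the only higher member outside the Hoxd cluster (log2 0.23, edgeR adjusted p = 0.0113). Hoxc4, Hoxc8, Hoxc9 and Hoxc13 were not called. Calls of Hoxc5 and Hoxc10, and of Hoxa2 and Hoxd3 in the other clusters, were also lost when single libraries were left out. Without MEF library 1, Hoxc5 had a log2 fold change of -0.24 (edgeR adjusted p = 0.214), and Hoxa2 one of -0.43 (edgeR adjusted p = 0.202). Without CiLC library 2, the log2 fold change of Hoxc5 was -0.30 (edgeR adjusted p = 0.135), and that of Hoxd3 was 0.22 (edgeR adjusted p = 0.233). Hoxc10 had 0.17 without CiLC library 1 and 0.17 without MEF library 2 (edgeR adjusted p = 0.137 and 0.111), and Hoxd3 had 0.30 without MEF library 1 and 0.31 without MEF library 2 (edgeR adjusted p = 0.0932 and 0.0961). Hoxa2 had -0.47, -0.56 and -0.60 without CiLC library 1, CiLC library 2 and MEF library 2 (edgeR adjusted p = 0.168, 0.101 and 0.0686).

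**Figure D3:**
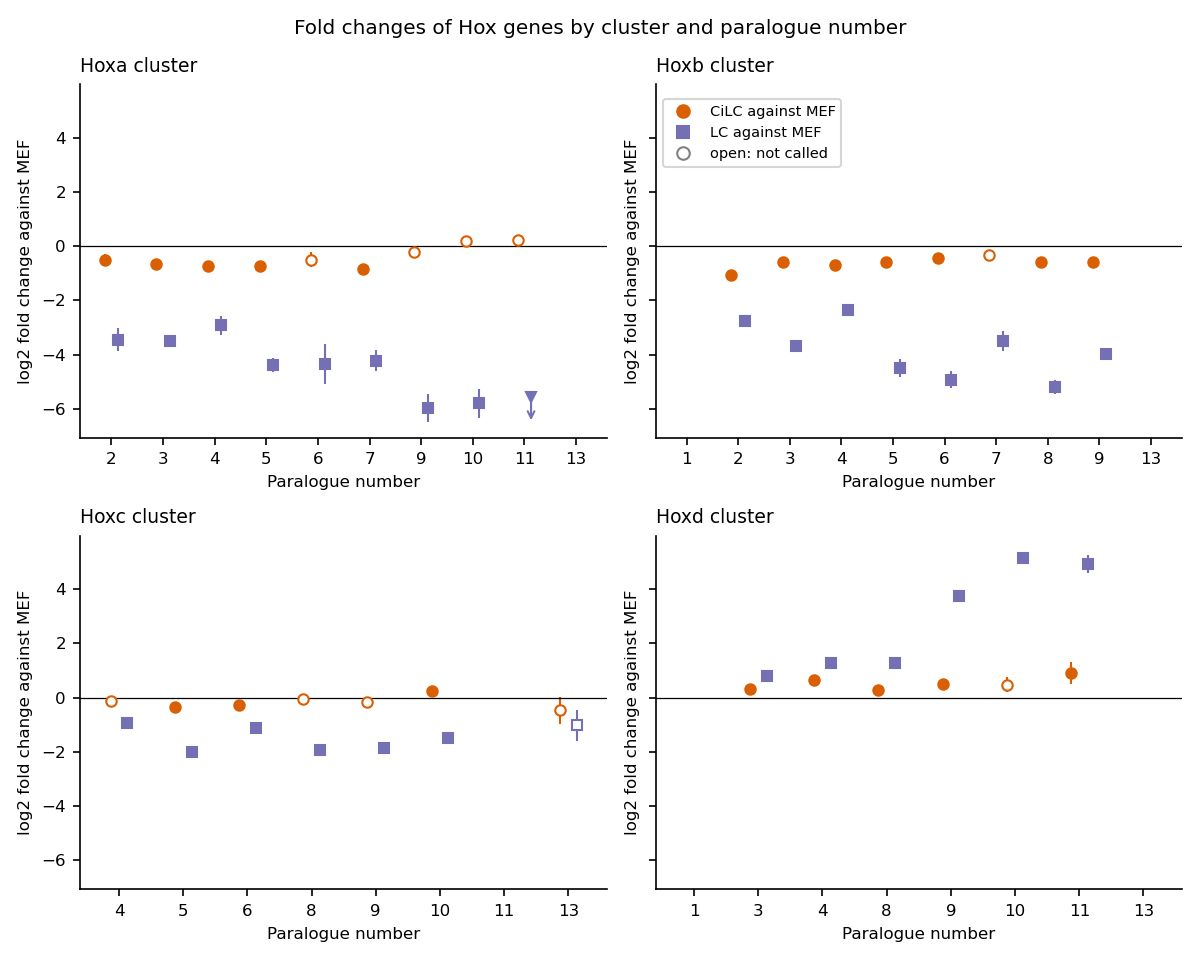
Log2 fold changes against MEF (y axis) by paralogue number (x axis), with a panel per cluster; circles are CiLC, squares are LC, open symbols were not called, bars are standard errors and the arrow marks Hoxa11, whose LC value is a bound. LC points are below 0 for Hoxa, Hoxb and Hoxc and above 0 for Hoxd, where they reach 5.15 at Hoxd10, and CiLC points stay between -1.06 and 0.91.

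The comparison of LC with MEF sets the Leydig cultures, in which the Sertoli markers also summed to more than in MEF, beside fibroblasts of the embryo. The peritubular and smooth muscle markers summed to less in LC (mean 928 CPM) than in MEF (1569 CPM). All 10 tested Hoxa genes, all 8 tested Hoxb genes and 6 of the 7 tested Hoxc genes were lower in LC, and all 6 tested Hoxd genes were higher. Hoxc13 alone was not called (log2 -1.02, edgeR adjusted p = 0.101). The called members were 30 of 31 (6 higher, 24 lower), 28 of them with at least 2-fold, beside 70.7% of all genes tested (35.7% higher, 35% lower, and 27.2% called with at least 2-fold). The median log2 fold change was -2.77 over the 31 members and -0.01 over all genes tested, and by cluster it was -4.28 for Hoxa, -3.83 for Hoxb, -1.50 for Hoxc and 2.51 for Hoxd. With Hoxa11 at its bound these medians were the same.

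The largest increases lay at the posterior end of the Hoxd cluster. Hoxd10 (NCBI gene 15430), a gene of the limbs and the lumbar spinal cord, had 1.83 and 1.57 CPM in CiLC, 43.1 and 44.7 CPM in LC, and 1.36 and 1.09 CPM in MEF. LC stood far apart, while CiLC and MEF were close to each other. It was 35.6-fold higher in LC than in MEF (log2 5.15, SE 0.214, edgeR adjusted p = 3.65e-20). Hoxd11, with the values above, was 30.2-fold higher in LC than in MEF (log2 4.91, SE 0.328, edgeR adjusted p = 4.38e-16). Hoxd9 (NCBI gene 15438), a posterior gene of the trunk and forelimb, had 8.09 and 8.57 CPM in CiLC, 80.6 and 80.3 CPM in LC, and 6.13 and 5.73 CPM in MEF. It was 13.6-fold higher in LC than in MEF (log2 3.76, SE 0.0996, edgeR adjusted p = 8.96e-22). Towards the anterior end the differences were smaller: Hoxd8 and Hoxd4 were each 2.40-fold higher and Hoxd3 was 1.73-fold higher in LC than in MEF (edgeR adjusted p = 4.80e-15, 8.38e-11 and 1.34e-06). Hoxd8 had 36.7 and 36.9 CPM in CiLC, 71.3 and 74.0 CPM in LC, and 29.5 and 30.9 CPM in MEF. The Hoxd13 gene at the posterior end, needed for the digits and the genital bud, had at most 1 read in any library.

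The largest decreases lay at the posterior end of the Hoxa cluster. Hoxa11 (NCBI gene 15396), needed in the uterus, the kidney and the forearm, had 110 and 84 reads in CiLC, 0 and 0 reads in LC, and 83 and 77 reads in MEF. Against a floor of 3 reads over both LC libraries it was at least 47.7-fold lower in LC than in MEF (edgeR adjusted p = 4.79e-11). Hoxa9 (NCBI gene 15405), a regulator of blood progenitors and of the posterior trunk, had 12.8 and 12.7 CPM in CiLC, 0.232 and 0.235 CPM in LC, and 15.2 and 14.6 CPM in MEF. LC held 4 reads in each library, and Hoxa9 was 62.1-fold lower in LC than in MEF (log2 -5.96, SE 0.514, edgeR adjusted p = 6.88e-17). Hoxa10 (NCBI gene 15395), known for its part in the uterus and in testis descent, had 12.9 and 13.7 CPM in CiLC, 0.232 and 0.177 CPM in LC, and 11.1 and 12.5 CPM in MEF. It was 55.8-fold lower in LC than in MEF (log2 -5.80, SE 0.550, edgeR adjusted p = 1.25e-15). All 3 genes were at or near 0 in LC, and none of them was called between CiLC and MEF.

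Hoxb8 (NCBI gene 15416), a thoracic gene, had 22.8 and 22.9 CPM in CiLC, 0.870 and 1.00 CPM in LC, and 33.2 and 36.3 CPM in MEF. It was 36.9-fold lower in LC than in MEF (log2 -5.21, SE 0.258, edgeR adjusted p = 1.81e-19). Hoxb6 (NCBI gene 15414), a thoracic gene active in lateral mesoderm, had 14.7 and 14.4 CPM in CiLC, 0.580 and 0.706 CPM in LC, and 19.5 and 20.1 CPM in MEF. The 3 groups were ordered the same way in both genes, with LC far below the others (Hoxb6 log2 -4.93, SE 0.312, edgeR adjusted p = 1.74e-17). Hoxb9 and Hoxb4 kept more of their level in LC, where they were 15.9-fold and 5.19-fold lower than in MEF (edgeR adjusted p = 4.26e-22 and 8.85e-15). The Hoxc genes were lower by the least, from 1.90-fold for Hoxc4 to 4.0-fold for Hoxc5 among the called members (edgeR adjusted p = 6.63e-10 and 1.59e-10). Hoxc6 was 2.17-fold, Hoxc8 3.83-fold, Hoxc9 3.67-fold and Hoxc10 2.83-fold lower in LC than in MEF (edgeR adjusted p = 1.08e-14, 3.59e-16, 1.94e-11 and 7.00e-13).

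The comparison of CiLC with LC asks directly how far the induced cells are like the Leydig cultures in their Hox genes. CiLC kept Hoxa, Hoxb and Hoxc levels above those of LC and Hoxd levels below them: 24 of the 31 tested members were higher in CiLC, 6 were lower, all of the Hoxd cluster, and Hoxc13 was not called (edgeR adjusted p = 0.408). Of the 30 called members 25 differed by at least 2-fold, beside 70.6% of all genes tested called (35% higher, 35.6% lower, and 25.4% with at least 2-fold). The median log2 fold change was 1.89 over the members and 0.00 over all genes tested. Hoxa11 was at least 56.2-fold higher in CiLC than in LC by the same floor. Hoxa10 was 63.2-fold and Hoxa9 53.1-fold higher in CiLC than in LC (edgeR adjusted p = 4.31e-16 and 3.18e-16), followed by Hoxb8 (24.3-fold) and Hoxb6 (22.4-fold; edgeR adjusted p = 1.06e-17 and 3.97e-16). Hoxd10 was 25.7-fold lower in CiLC than in LC (log2 -4.68, SE 0.180, edgeR adjusted p = 7.43e-20), Hoxd11 16.0-fold lower and Hoxd9 9.65-fold lower. The 3 comparisons share libraries, so their values for a member are not independent. Set side by side, 28 of the 31 tested members had CiLC means between those of LC and MEF, among them 19 of the 20 called in CiLC against MEF. The other 3 had their highest mean in CiLC and their lowest in LC: the called Hoxc10 (32.8 CPM in CiLC, 9.90 CPM in LC and 28.0 CPM in MEF), and Hoxa10 and Hoxa11, which were not called in CiLC against MEF. On the log2 scale Hoxd4 stood about midway, 0.66 above MEF and 0.60 below LC. Of the 31 members, 30 stood nearer to MEF than to LC, a difference of distances that was not tested. The same counts were not made over all genes tested, so neither can be called particular to Hox genes. Over all genes tested, called or not, 13.6% differed by at least 2-fold in CiLC against MEF and 25.9% in CiLC against LC.

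Read by paralogue number, the direction in LC followed the cluster and not the number. At numbers 3, 4, 8, 9, 10 and 11 the Hoxd member was higher and the tested members of the other clusters were lower in LC than in MEF. At numbers 5, 6 and 7 all 8 members were lower. The summed level of a number therefore hid changes of its members. At number 9 it was 98.3 ± 3.24 CPM in CiLC, 90.4 ± 0.261 CPM in LC and 132 ± 2.30 CPM in MEF, made mostly of Hoxb9 in CiLC and MEF and of Hoxd9 in LC. At number 10 it was 47.8 ± 1.2 CPM in CiLC, 54.0 ± 0.406 CPM in LC and 41.0 ± 0.612 CPM in MEF, mostly Hoxc10 in CiLC and MEF and Hoxd10 in LC. At number 11 it was 6.05 ± 1.07 CPM in CiLC, 16.0 ± 0.364 CPM in LC and 4.84 ± 0.0171 CPM in MEF, mostly Hoxa11 in CiLC and MEF and Hoxd11 in LC. Numbers 2, 5, 6 and 7 have no Hoxd gene, and their sums were lowest in LC but differed widely. The sums of numbers 1, 3, 4, 8, 9 and 13, which have a Hoxd gene, were lowest in LC too. Only at numbers 10 and 11 was the LC sum the highest. Number 6 summed to 103 ± 0.361 CPM in CiLC, 49.7 ± 0.153 CPM in LC and 128 ± 3.71 CPM in MEF, mostly Hoxc6 in each group, and so stood in LC above the sums of numbers 3, 4 and 11, which have a Hoxd gene. Number 5 summed to 27.6 ± 0.507 CPM in CiLC, 4.03 ± 0.126 CPM in LC and 41.5 ± 3.64 CPM in MEF, and number 7 to 9.52 ± 0.587 CPM in CiLC, 0.961 ± 0.527 CPM in LC and 14.6 ± 0.370 CPM in MEF.

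Grouped by position in a cluster, anterior members (numbers 1 to 3) held 11.7% of Hox reads in CiLC, 5.83% in LC and 13.8% in MEF. Central members (numbers 4 to 8) held 58.9% in CiLC, 50.2% in LC and 57.9% in MEF. Posterior members (numbers 9 to 13) held 29.4% in CiLC, 44.0% in LC and 28.3% in MEF. The LC libraries thus had the largest posterior share, although 6 of their 10 tested posterior members were lower than in MEF and 3 were higher. In CiLC against MEF, anterior members were 1 higher, 4 lower and 1 not called, central members 2 higher, 9 lower and 4 not called, and posterior members 3 higher, 1 lower and 6 not called.

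Levels of different genes were compared as CPM per kilobase of exon. In CiLC the highest were Hoxc6 (55.0 ± 0.0170), Hoxb9 (25.6 ± 0.940), Hoxc8 (25.6 ± 1.63) and Hoxc10 (17.2 ± 0.833). In LC the highest were Hoxd9 (37.7 ± 0.101), Hoxc6 (30.9 ± 0.0166), Hoxd8 (26.5 ± 0.689), Hoxd10 (24.2 ± 0.619) and Hoxd11 (14.4 ± 0.364). In MEF the highest were Hoxc6 (67.1 ± 2.87), Hoxb9 (38.2 ± 0.670), Hoxc8 (26.4 ± 1.35) and Hoxc10 (14.7 ± 0.751). CiLC and MEF had the same 4 genes at the top in the same order, with Hoxb9 and Hoxc8 in CiLC closer to each other than their spread. Of these 4 genes, Hoxc6 was also among the 4 highest in LC.

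Hox proteins bind DNA together with homeodomain partners of the TALE class, made of the Pbx, Meis, Pknox and Tgif families. All 12 listed genes were tested, among them Hmbox1, which belongs to none of these families. Hmbox1 was not called in either comparison below and is part of the counts and shares. In CiLC against MEF 1 was higher, 6 were lower and 5 not called (median log2 difference -0.10), and in LC against MEF 3 were higher, 3 were lower and 6 were not called (median -0.04). The called shares, 58.3% and 50%, were near and below the 51.6% and 70.7% of all genes tested. The largest difference was that of Pknox2, with 7.84 and 7.40 CPM in CiLC, 146 and 156 CPM in LC, and 14.9 and 13.4 CPM in MEF. Its log2 fold change was 3.41 in LC against MEF and -0.89 in CiLC against MEF (edgeR adjusted p = 2.51e-22 and 2.19e-07). Meis2 differed little, with means of 31.8 CPM in CiLC, 29.9 CPM in LC and 30.3 CPM in MEF.

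Polycomb proteins keep Hox clusters silent through methylation of histone H3, and trithorax proteins and histone demethylases keep them active. Their genes differed by little. Of 24 Polycomb genes 5 were higher, 8 lower and 11 not called in CiLC against MEF (median log2 fold change -0.14), and 6 were higher, 10 lower and 8 not called in LC against MEF (median -0.05), with 1 called at 2-fold or more, Phf19 in LC (log2 -1.34, edgeR adjusted p = 2.92e-09). Ezh2, the main H3K27 methyltransferase, averaged 20.6 CPM in CiLC, 14.5 CPM in LC and 25.1 CPM in MEF. Of 15 trithorax and demethylase genes 2 were higher, 6 lower and 7 not called in CiLC against MEF (median -0.09), and 1 was higher, 7 lower and 7 not called in LC against MEF (median -0.12), and none reached 2-fold. The called shares of the Polycomb genes, 54.2% in CiLC against MEF and 66.7% in LC against MEF, were near the 51.6% and 70.7% of all genes tested, and those of the trithorax and demethylase genes, 53.3% in both, were near and below them. Kdm6a, an H3K27 demethylase, averaged 52.4 CPM in CiLC, 32.1 CPM in LC and 41.8 CPM in MEF.

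Retinoic acid, Cdx factors and growth factors switch Hox genes on in the embryo. The 17 genes listed for this control are not all inducers, since Cyp26a1 and Cyp26b1, whose enzymes degrade retinoic acid, are among them. Of the 17, 13 were tested, Cyp26b1 among them. In CiLC against MEF 4 were higher, 6 lower and 3 not called, and in LC against MEF 5 were higher, 7 lower and 1 not called. The called shares were 76.9% and 92.3%, beside 51.6% and 70.7% of all genes tested. Aldh1a2, which makes retinoic acid, had 9.26 and 10.4 CPM in CiLC, 379 and 385 CPM in LC, and 3.41 and 3.90 CPM in MEF (log2 1.43 in CiLC against MEF and 6.71 in LC against MEF, edgeR adjusted p = 3.74e-09 and 2.35e-26). Cyp26b1, which degrades it, had 215 and 216 CPM in CiLC, 31.8 and 34.7 CPM in LC, and 37.6 and 37.4 CPM in MEF (log2 2.52 in CiLC against MEF, edgeR adjusted p = 6.73e-21). The synthesis gene was thus highest in LC and the degradation gene in CiLC. Rarb, a retinoic acid receptor that retinoic acid itself induces, averaged 4.0 CPM in CiLC, 14.0 CPM in LC and 1.70 CPM in MEF. Of the other listed receptors, Rara was higher in LC than in MEF (log2 0.28, edgeR adjusted p = 0.000187). Rarg and Rxra were lower (log2 -0.45 and -0.50, edgeR adjusted p = 1.48e-07 and 4.30e-09). The part of these genes in the Hox differences was not tested. Cdx1 and Cyp26a1 had at most 3 reads in any library.

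Among the 5 nearest protein-coding genes on each side of each cluster, 36 of 40 were tested. In LC against MEF 16 were higher, 9 lower and 11 not called, with 3 called at 2-fold or more and a median log2 fold change of 0.19, and in CiLC against MEF 6 were higher, 7 lower and 23 not called (median -0.01). The called shares were 69.4% in LC against MEF and 36.1% in CiLC against MEF, beside 70.7% and 51.6% of all genes tested. Beside the Hoxd cluster, Mtx2, a mitochondrial import gene at its anterior end, averaged 28.8 CPM in CiLC, 30.4 CPM in LC and 24.0 CPM in MEF, and Lnpk, an endoplasmic reticulum gene near its posterior end, averaged 38.5 CPM in CiLC, 18.0 CPM in LC and 30.9 CPM in MEF. Evx2, a homeobox gene next to Hoxd13, had at most 1 read in any library. Mtx2 and Lnpk thus moved in opposite directions in LC while all tested Hoxd genes between them were higher.

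**Figure D4:**
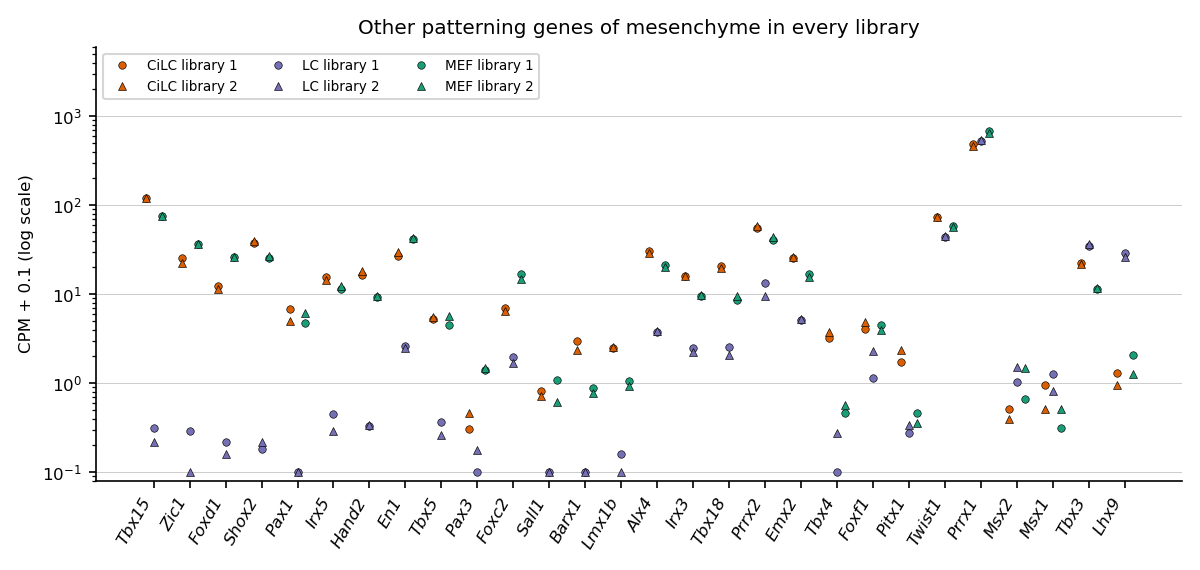
Level of 28 other patterning genes of mesenchyme in every library, as CPM + 0.1 on a log scale, ordered by the difference of the log2 means (CPM + 0.1) of LC and MEF. Most LC points lie far below those of CiLC and MEF, and Lhx9 and Tbx3 lie above.

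Other transcription factors that give mesenchyme its position were also lower in LC. Of 35 listed genes 30 were tested, and in LC against MEF 3 were higher (Lhx9, Tbx3 and Msx1), 25 were lower and 2 were not called, with 26 called at 2-fold or more. These counts stand beside 35.7% higher, 35% lower and 27.2% called at 2-fold or more over all genes tested. The median log2 fold change was -3.66, or -3.09 with the 5 genes at 0 in LC, Pax1, Barx1 and Sall1 among them, set to their bounds. Tbx15, a gene of trunk dermis and limb girdles, had 120 and 120 CPM in CiLC, 0.210 and 0.119 CPM in LC, and 74.9 and 74.7 CPM in MEF (log2 -8.68 in LC against MEF, edgeR adjusted p = 4.52e-23). Shox2, a gene of the proximal limb, averaged 38.4 CPM in CiLC, 0.0989 CPM in LC and 25.9 CPM in MEF. Lhx9 went the other way, with 1.21 and 0.861 CPM in CiLC, 29.2 and 26.2 CPM in LC, and 1.99 and 1.15 CPM in MEF (log2 4.14 in LC against MEF, edgeR adjusted p = 9.27e-17). In CiLC against MEF 15 of the 30 were higher, 7 lower and 8 not called (median 0.34), which is 73.3% called, beside 51.6% of all genes tested. Among these, Tbx4 and Pitx1, which specify the hindlimb, had means of 3.43 and 1.93 CPM in CiLC, 0.0883 and 0.205 CPM in LC, and 0.418 and 0.314 CPM in MEF (log2 3.02 and 2.60 in CiLC against MEF, edgeR adjusted p = 2.83e-07 and 1.37e-05). Foxd1 and Zic1 were lower in CiLC than in MEF (log2 -1.13 and -0.62, edgeR adjusted p = 2.68e-10 and 1.18e-06). The plot of patterning genes by library shows both sides.

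Nothing in the labels says that the paired libraries of a group are independent cultures or mice, and the p-values therefore cover no more than their library-to-library spread, possibly technical. Where the counting used no strand, reads of the 20 members whose spans overlap another gene, many of them antisense RNAs, could include reads of that gene. Values that were not whole in at least 1 library, as when reads are split between genes, occurred in 11 members: Hoxa3, Hoxa6, Hoxa7, Hoxb3, Hoxb4, Hoxb9, Hoxc6, Hoxc8, Hoxd3, Hoxd10 and Hoxd11. The 17 listed noncoding RNAs and microRNAs of the clusters were not analysed here.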

How the data were processed

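The authors deposited expected counts, estimated reads per gene by NCBI gene number, 1 table per library, per the file headers. Reads had been aligned with HISAT to mm9, per the submitters' processing notes; the sources used here give no counting tool, annotation or strand. Values of 11 Hox members were not whole in at least 1 library, as when reads are split between genes. Symbols came by gene number from a RefSeq table of GRCm38.p6 (18179 of 18305 genes), and exon lengths from GENCODE M21. After rounding, edgeR 4.0.16 (R 4.3.3) was run with filterByExpr (minimum count 10, minimum total 15), trimmed mean of M values, and 1 quasi-likelihood fit of all 6 libraries, two-sided, with Benjamini-Hochberg adjustment over 14581 genes and calls at an adjusted p of 0.05. The common coefficient of variation was 3.16%. CPM use the scaled library sizes, and log2 fold changes a prior count of 0.125. The procedure was tested on simulated data. Floors are 3 reads summed over a group, and intervals cover counting error only. A chi-square per degree of freedom of 1.80 in CiLC, 2.94 in LC and 2.77 in MEF exceeded sampling noise, so both libraries of each group were kept. Values are given in all libraries for the 6 called members with the largest change in each comparison and the smallest p of each cluster in CiLC against MEF; others were named after their values were seen or by list. A few genes counted in the totals are not reported here by name or plotted singly. Members and lists were chosen with earlier results of these data known. Alternatives were other scalings, DESeq2 1.42.0, limma 3.58.1, no filter, a replicate block, assumed spreads, 4 libraries and single libraries left out.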

Additional observations from a re-analysis of the deposited data

How the results depend on the processing

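No Hox log2 fold change that was called changed direction under any setting tried. In LC against MEF and in CiLC against LC, the same 30 members were called under every setting except an assumed biological coefficient of variation of 0.4, set high to stand for unrelated cultures: there 23 were called in LC against MEF (3 higher, 20 lower) and 24 in CiLC against LC (21 higher, 3 lower). Without the filter on low counts, Hoxd1, otherwise untested, was also called lower in LC against MEF (edgeR adjusted p = 0.0131), which made 31. There the called share over all genes tested was 55.8%. In CiLC against MEF, 12 of the 20 called members were called under every setting but that one, where 0 were called (0 higher, 0 lower). The other 8, Hoxa2, Hoxa4, Hoxc5, Hoxc6, Hoxc10, Hoxd3, Hoxd8 and Hoxd11, lost their call under at least 1 more setting. With DESeq2 14 were called (3 higher, 11 lower), and with an assumed coefficient of 0.1 there were 13 (2 higher, 11 lower). Calls over all genes tested fell too. In CiLC against MEF their share was 39% with DESeq2, 28.8% with 0.1 and 4.63% with 0.4, beside 51.6% in the main fit. With 0.4 it was 17.2% in LC against MEF and 15.4% in CiLC against LC, beside 70.7% and 70.6%. The cause of the lost Hox calls was not tested, apart from the larger spread that the assumed coefficients set. Leaving out single libraries gave 16 to 19 called members in CiLC against MEF (4 to 5 higher, 12 to 14 lower), and 30 in each of the other comparisons; a group left with 1 library is then assumed to vary like the others. Without the filter 18 were called in CiLC against MEF, 17 of them among the 20, and with quantile scaling 19, with Hoxa9 gained in both. The called shares over all genes tested were 37.7% and 50.9%. With scaling by total counts the median log2 fold change of all genes was 0.07 in CiLC against MEF, -0.16 in LC against MEF and 0.22 in CiLC against LC. With this scaling 18 members were called in CiLC against MEF, beside 53.5% of all genes tested. Correlations of same-numbered deviations were -0.0773, 0.0886 and 0.0246, which cannot tell whether libraries with the same number share a culture or day. With the number as a replicate block 19 members were called in CiLC against MEF, beside 51.5% of all genes tested. Hoxa2 was lost (edgeR adjusted p = 0.0532). In each of the other comparisons 30 members were called, beside 70.6% of all genes tested. With about 18 M reads a library, members with fewer than about 10 reads could not be ranked.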
